A study of Mus musculus with 32 samples.

Results

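Splenic B cells of mice with the DNA damage kinase ATM (ATMWT) and without it (ATMKO) were stimulated for 6 h with anti-IgM, and each stimulated sample was set against the untreated sample of its own genotype. Members were chosen by their labels alone: 7 of the 32 arrays in the series, namely 1 untreated and 1 stimulated ATMWT array, 3 untreated ATMKO arrays and 2 stimulated ATMKO arrays. All groups came from mice that also carried a knockout of the T cell receptor subunit CD3 epsilon, so the labelled genotypes were ATMKO.CD3epsilonKO and ATMWT.CD3epsilonKO. Stimulated cells received goat anti-mouse IgM at 15 ug/ml, and untreated cells carried no agent in their labels. The rest of the series, lymphoma lines, germinal centre B cells and drug-treated lines, was not used here. The series text calls the ATMKO repeats technical, so they were averaged, which left 4 samples, 1 per genotype and condition. Each array paired its sample (Cy5) with a common RNA pool (Cy3), and a level is log2 of sample over pool. A difference is the level at 6 h minus the untreated level, in log2 units, and a log2 difference of 1 is a 2-fold change.

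Anti-IgM crosslinks the B cell receptor on the cell surface. The receptor then signals through the kinases LYN, SYK and BTK and through phospholipase C to calcium, ERK and NF-kappaB, and through PI3 kinase to AKT, which shuts FOXO factors out of the nucleus. Immediate early genes such as Fos and Egr1 answer first and are shut off again by feedback, and a resting B cell that goes on towards division enlarges, making ribosomes, lipids and nucleotides.

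Between 56.6% and 60.7% of each array's spots stood above background in Cy5. Both stimulated ATMKO arrays correlated with each other across genes at 0.936 and with the stimulated ATMWT array at 0.942 and 0.925. Of the untreated ATMKO arrays, repeats 2 and 3 correlated at 0.973, but repeat 1 correlated with them at only 0.780 and 0.791. On repeat 1, 61 genes lay at least 8-fold above the mean of repeats 2 and 3 and 2 lay as far below. Some counts over all genes are therefore also given without it, but list counts, medians and most single differences include it. Both ATMWT arrays were on 1 slide and the ATMKO arrays on 2 others, each with untreated and stimulated samples, so genotype and slide cannot be told apart, while each slide gives a difference of its own. The 6 h samples also carry a treatment time of 3 h in 1 label field, against 6 h in their title, source name and protocol. Whether untreated cells were cultured for the same time is not given in the sources used here, so the effect of culture and that of anti-IgM cannot be told apart. Atm levels, with its brighter probe, were 0.42 and 0.63 on the ATMWT arrays and lower, -0.93 to -0.24, on the 5 ATMKO arrays. Both Atm probes were well above background on all 7 arrays, so they show a lower level in ATMKO cells but no absence. Cd3e, the deleted CD3 epsilon gene, was well above background on all 7 arrays, with levels from -0.39 to 0.98, so its probe does not show the labelled deletion. All 12 B cell marker genes measured, among them Cd79a and Ms4a1, were well above background on all 7 arrays. So were all tested T cell, NK cell and erythroid markers, and 20015 genes could be tested under that filter. Standing above background therefore does not tell B cells from other cells here.

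Of 22504 genes tested, 28.4% passed the test at an adjusted p of 0.05: 2694 rose (12.0%) and 3708 fell (16.5%). All 6402 had the same sign in both genotypes, but the fit takes the disagreement between the genotypes as its residual, so the call itself nearly fixes that sign. A gene moved alike where it passed and differed at least 2-fold the same way in each genotype, which held for 460 genes that were higher (2.04%) and 774 that were lower (3.44%). Without repeat 1 of the untreated ATMKO cells the counts were 471 and 818. Those 460 were 58.4% of the genes at least 2-fold higher in ATMWT cells and 61.6% of those in ATMKO cells, and the 774 were 61.5% and 60.2% of the lower ones. The 3 stimulated arrays lay wholly apart from the 4 untreated ones for 455 of the 460 and 769 of the 774. Over all 22504 genes they lay wholly above for 4643 and wholly below for 6027. A 2-fold difference in both genotypes nearly fixes that separation, so it adds no support, here or for the genes named below. Across genes the ATMWT and ATMKO differences correlated at 0.80, as a description of these samples, since genes are not independent. The split between directions depended on the normalisation: 42.1% of the calls rose with loess normalisation within arrays and 74.0% with each array centred on its median. Median centring moved the median difference of all genes by 0.18 and gave 1310 genes alike higher and 389 alike lower. Directions are given here relative to no change, and the median difference of -0.05 over all genes was not subtracted.

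**Figure D1:**
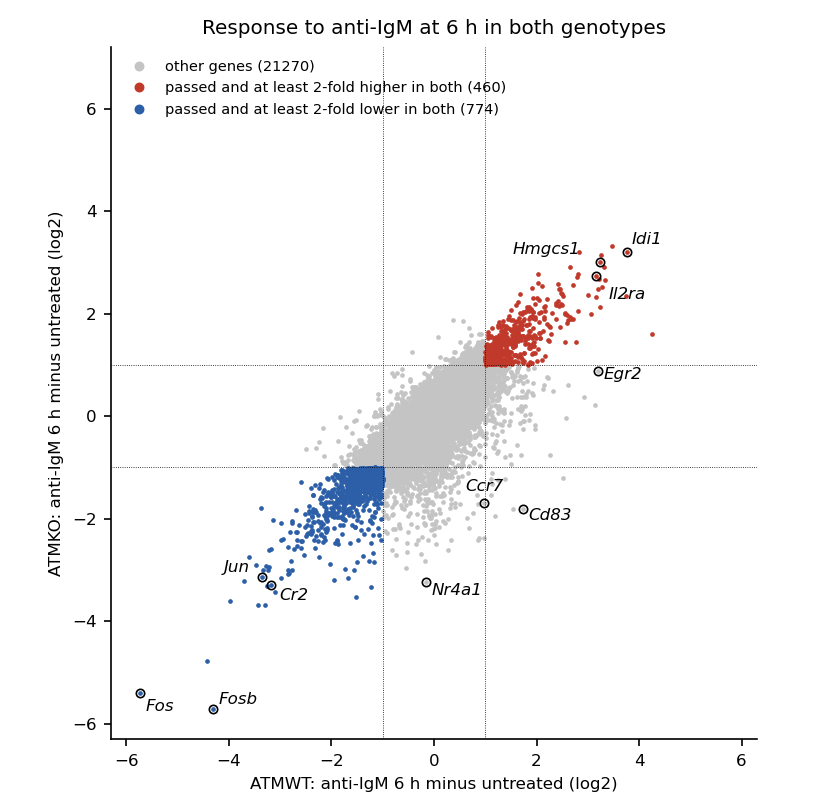
Difference at 6 h (log2) in ATMWT cells (x axis) and ATMKO cells (y axis), 1 point per gene, with dotted lines at 2-fold. The 460 red and 774 blue genes moved alike, most points follow the diagonal, and Nr4a1, Cd83, Ccr7 and Egr2 lie off it.

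The genes with the largest rise at 6 h were led by cholesterol enzymes. Idi1, which makes the isoprene units of sterols, rose 11.2-fold, and Hmgcs1 and Sqle rose 8.67-fold and 8.62-fold. Beside them stood Crabp2, a carrier of retinoic acid, at 10.5-fold, Csf1, the macrophage growth factor, at 7.98-fold and Il2ra, the alpha chain of the interleukin-2 receptor, at 7.67-fold. Mreg and Shisa8 rose 8.27-fold and 8.05-fold, and Ndrg4 9.16-fold, although the Ndrg4 probe was above background on only 1 of the 4 untreated arrays. The steepest falls were those of immediate early genes, Fos at 47.4-fold and Fosb at 32.2-fold. Ackr3, a scavenger receptor for CXCL12, fell 24.3-fold, Dusp1, a phosphatase that shuts off MAP kinases, 13.8-fold, and Tsc22d3, a FOXO and glucocorticoid target, 11.3-fold. Nebl and Car1, a red cell carbonic anhydrase, fell 11.8-fold and 11.0-fold, and Cacna1i 9.81-fold with its brighter probe but by 0.15 log2 with its other probe.

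Cholesterol synthesis was the list with the highest median. In it 20 of 22 genes rose and none fell, with a median difference of 1.87, and 17 moved alike (2.04% of all genes did so in that direction). The list runs from acetyl-CoA to cholesterol and includes the regulators Srebf2 and Insig1. Idi1 levels were -3.03 in untreated ATMWT cells and -2.48, -2.47 and -2.37 in untreated ATMKO cells. At 6 h they were 0.73 in ATMWT and 0.70 and 0.82 in ATMKO cells. The stimulated arrays were all high and the untreated arrays all low, with no overlap, a difference of 3.48 (SE 0.17, adjusted p = 0.00201). Hmgcs1, which starts the mevalonate branch, stood at -2.33 in untreated ATMWT and -2.09, -2.11 and -2.15 in untreated ATMKO cells, and at 0.90, 0.86 and 0.91 after stimulation. Its 2 probes disagreed in size: the brighter, used here, differed by 3.12 (SE 0.12) and the other by 0.66.

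Enzymes on both sides of squalene rose. Mvk, Pmvk and Mvd, which phosphorylate and decarboxylate mevalonate, differed by 1.73, 0.71 and 1.66, and the prenyl synthase Fdps and the squalene synthase Fdft1 by 1.91 and 2.12. In the sterol arm Sqle, Lss and Cyp51 differed by 3.11, 2.32 and 2.89, and Msmo1 by 2.63. The 2 members that did not pass were Ebp at 0.05 (adjusted p = 0.787) and Tm7sf2 at 0.42 (adjusted p = 0.105). Among the regulators, Srebf2, the transcription factor that activates these genes, differed by 1.90 (1.00 with its other probe), and Insig1, which holds it back in the endoplasmic reticulum, by 1.85. Sqle, which opens the sterol arm, stood at -2.78 in untreated ATMWT and -2.49, -2.57 and -2.49 in untreated ATMKO cells against 0.53, 0.40 and 0.39 at 6 h, with no overlap. On the single ATMKO arrays at 3 h and 24 h, Idi1 levels were -3.54 and -1.01 and Hmgcs1 levels -2.18 and -1.20, so the 6 h arrays held the highest level of both. Those 2 time points have no second array and no ATMWT sample.

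**Figure D2:**
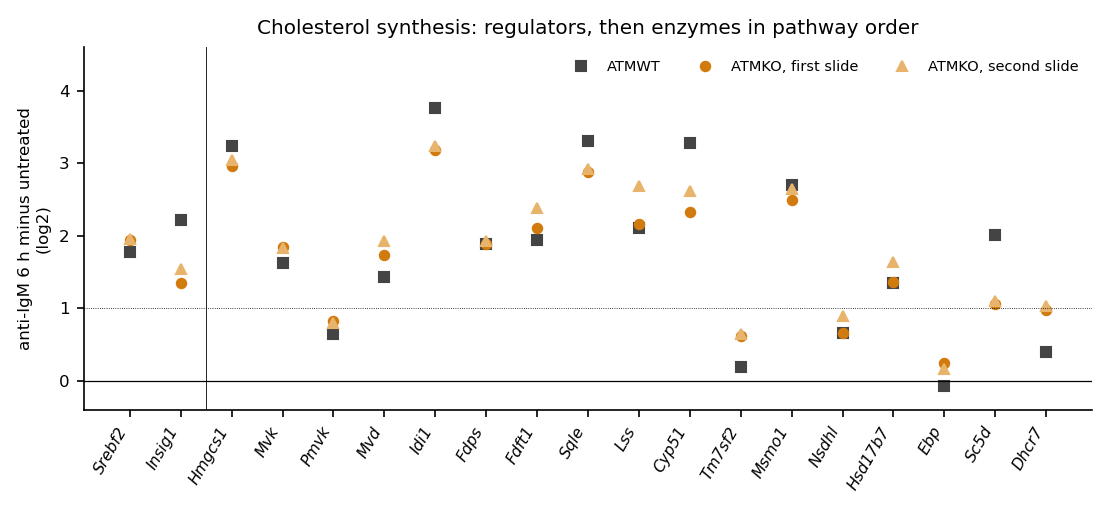
Difference at 6 h (log2) of cholesterol genes, regulators first and then enzymes in pathway order, on the ATMWT slide (squares) and the 2 ATMKO slides (circles and triangles), with the dotted line at 2-fold. Idi1 lies at 3.76, 3.18 and 3.24, while Ebp lies near 0 on all 3 slides.

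Because these genes rose together, the 250 bases before their start sites were read from RefSeq promoters (GRCm38.p6), which held 16 of the 22 genes. The CCAAT box, searched as CCAAT on both strands, occurred in 16 of those 16 promoters, against 39.9% of the 11872 tested genes with a promoter. It also occurred in 7 of 8 promoters of class II presentation genes, which fell, and its link to either change was not tested. A sterol regulatory element, searched as TCACNCCAC, occurred in 1 of 16, that of Hmgcs1, against 1.26% of tested genes. The promoters of Hmgcs1 (plus strand, chr13:119690101-119690350) and Idi1 (plus strand, chr13:8885356-8885605) are shown 5′ to 3′, as those of the cholesterol genes with the largest rises. Capitals mark the CCAAT boxes, which read ATTGG here as all lie on the minus strand, and the sterol element of Hmgcs1, 137 to 129 bases before the start.
Hmgcs1: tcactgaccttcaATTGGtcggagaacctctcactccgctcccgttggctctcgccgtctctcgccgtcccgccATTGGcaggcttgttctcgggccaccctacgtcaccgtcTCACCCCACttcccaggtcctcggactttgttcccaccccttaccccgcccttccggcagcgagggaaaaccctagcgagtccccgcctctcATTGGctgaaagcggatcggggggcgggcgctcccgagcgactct
Idi1: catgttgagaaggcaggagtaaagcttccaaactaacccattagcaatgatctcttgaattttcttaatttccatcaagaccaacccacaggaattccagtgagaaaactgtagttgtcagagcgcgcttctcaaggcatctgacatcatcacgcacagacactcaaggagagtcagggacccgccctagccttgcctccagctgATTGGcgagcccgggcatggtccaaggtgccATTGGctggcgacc

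Genes of ribosome biogenesis, which build and process ribosomal RNA in the nucleolus, rose without exception in this list. All 26 tested passed with a median difference of 1.20, and 14 moved alike. Ncl, the nucleolar protein nucleolin, stood at -0.81 in untreated ATMWT and -0.57, -0.78 and -0.90 in untreated ATMKO cells. After stimulation its levels were 0.83, 0.93 and 0.65, a difference of 1.59 (SE 0.11, adjusted p = 0.00259), with no overlap between conditions. Utp20 and Nop16, both needed for subunit assembly, differed by 1.56 and 1.51. RNA polymerase I subunits Polr1a and Polr1b differed by 0.97 and 1.29, and the rRNA methylase Fbl by 1.31, with the second probes of Polr1a and Polr1b at 0.38 and 0.33. The smallest rise of the list was Wdr43 at 0.59.

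Supply routes for growth rose in part. Of 23 genes of nucleotide and polyamine synthesis 16 rose and none fell, with a median of 0.72 (7 and 0 with the scanner's own log ratio). The largest differences there were those of Shmt2 and Mthfd2, mitochondrial enzymes of the folate cycle, at 1.79 and 1.42, and of Srm, the spermidine synthase, at 1.55. Odc1, the first enzyme of polyamine synthesis, did not pass, with 1.36 in ATMWT and 0.08 on each ATMKO slide. Tyms, which makes thymidylate for DNA, stood at -0.02 and did not pass either. Of 21 amino acid and ATF4 genes, which a cell short of amino acids induces, 13 rose and 1 fell, with a median of 0.66 and 7 alike. Trib3 and Chac1, stress-responsive targets of ATF4, differed by 2.67 and 2.34 and Asns, the asparagine synthetase, by 1.67, while Atf4 itself lay at 0.01 (adjusted p = 0.976). Sesn2 fell by 0.66. In glycolysis 12 of 16 genes rose and 2 fell, with a median of 0.88 (7 and 0 with the scanner's log ratio), led by Ldha, lactate dehydrogenase, at 1.93. Pfkp, a phosphofructokinase, differed by 1.58 with its brighter probe and by 0.72 with its other probe. Of the glucose transporters on the list, Slc2a3 fell by 0.92 and Slc2a1 stood at 0.08 (adjusted p = 0.85). Among 17 chaperones and folding enzymes of the endoplasmic reticulum 7 rose and 2 fell (12.0% and 16.5% of all genes did). With median centring these counts were 11 and 2, and with the scanner's log ratio 1 and 1. The chaperone median of 0.30 changed sign under some of the other settings, with a lowest value of -0.08.

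Interferon-induced genes, which encode antiviral proteins, were higher in both genotypes. Of 20, 18 rose and none fell, with a median of 1.13 and 10 alike. Ifit1, which binds foreign RNA caps, stood at -0.87 in untreated ATMWT and -0.33, -0.74 and -0.72 in untreated ATMKO cells, and at 1.55, 1.73 and 1.57 at 6 h. That is a difference of 2.33 (SE 0.12, adjusted p = 0.00201), and the conditions did not overlap. Usp18, a brake on the interferon receptor, and Oasl1 differed by 2.15 and 2.00. Irf9, a part of the factor that interferon activates, differed by 0.49, and its partner Stat2 stood at 0.33 and did not pass (adjusted p = 0.133). The interferon-stimulated element, searched as GAAANNGAA on both strands, occurred before 8 of the 15 list genes with a promoter, against 7.70% of tested genes. Ifit1 (plus strand, chr19:34640639-34640888, GRCm38.p6) is shown because its promoter belongs to the largest rise of this list. Capitals mark 3 matches, of which the first 2 overlap, and all lie on the minus strand.
Ifit1: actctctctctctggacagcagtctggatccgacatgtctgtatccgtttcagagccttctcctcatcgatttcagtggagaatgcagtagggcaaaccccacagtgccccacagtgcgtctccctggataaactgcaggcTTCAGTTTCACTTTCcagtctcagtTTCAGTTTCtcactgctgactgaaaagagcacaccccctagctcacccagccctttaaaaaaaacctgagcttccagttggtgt
The cAMP response element, searched as TGACGTCA on both strands, occurred before 2 of 21 immediate early genes, against 2.88% of tested genes. A match describes letters in these windows and was not tested as a binding site.

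Genes of the activated B cell surface and its cytokines moved in both directions. Of 20 surface genes 3 rose and 6 fell (12.0% and 16.5% of all genes did), a split that became 6 and 5 with median centring. Il2ra was at -1.92 in untreated ATMWT and -1.64, -1.88 and -1.92 in untreated ATMKO cells and reached 1.23, 0.88 and 0.96 at 6 h, a difference of 2.94 (SE 0.15, adjusted p = 0.00201). Pdcd1, the inhibitory receptor PD-1, differed by 2.28 and the adhesion receptor Cd44 by 0.48, although its 4 probes ran from -0.17 to 0.48. Icosl and Cd80, ligands that costimulate T cells, fell by 1.92 and 1.15 and the receptor Cd40 by 1.01, while Cd86, another such ligand, stood at 0.93 and did not pass (adjusted p = 0.123). Among 18 cytokines and chemokines 5 rose and 4 fell. Csf1 went from -1.75 in ATMWT and -0.75, -0.88 and -0.85 in ATMKO cells to 1.58, 1.89 and 1.78, and Ccl3 and Ccl4, chemoattractants for T cells, differed by 0.93 and 1.38. Lymphotoxins went the other way, with Lta falling by 2.88 and Ltb by 1.90.

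Of 26 immediate early transcription factors 13 fell and 3 rose at 6 h (16.5% and 12.0% of all genes did), and 6 were alike lower. Their median was -0.89, made up of -0.37 in ATMWT and -1.17 in ATMKO cells. In untreated ATMKO cells 11 of the 26 had levels at least 2-fold above those of ATMWT cells, against 1.8% of all genes. With median centring 9 fell and 3 rose, and with the scanner's log ratio 5 fell and 2 rose. Fos, a subunit of the AP-1 factor, stood at 2.08 in untreated ATMWT and 1.49, 1.64 and 1.59 in untreated ATMKO cells. At 6 h it was at -3.65, -3.90 and -3.77, a difference of -5.57 (SE 0.13, adjusted p = 0.00201) with no overlap. Its partners Jun and Junb fell by 3.25 and 1.56, and Jund by 1.84. The 3 that rose were Fosl1 at 1.32, Nab2, a corepressor of EGR factors, at 1.56, and Egr2 at 2.04, whose ATMWT and ATMKO differences were 3.21 and 0.87. Egr2 passed narrowly (adjusted p = 0.0431), and it lost the call in 8 of the other settings, among them leaving out repeat 2 or 3 of the untreated or repeat 2 of the stimulated ATMKO arrays, with adjusted p up to 0.105. Egr1 stood at -0.50 and did not pass (adjusted p = 0.0621). Feedback inhibitors of ERK were split, with Dusp1 and Dusp6 falling by 3.79 and 2.46 and Spry1, a brake on receptor signalling, rising by 2.32. On the single ATMKO arrays at 3 h and 24 h Fos levels were -1.89 and -3.96, both under the untreated range.

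**Figure D3:**
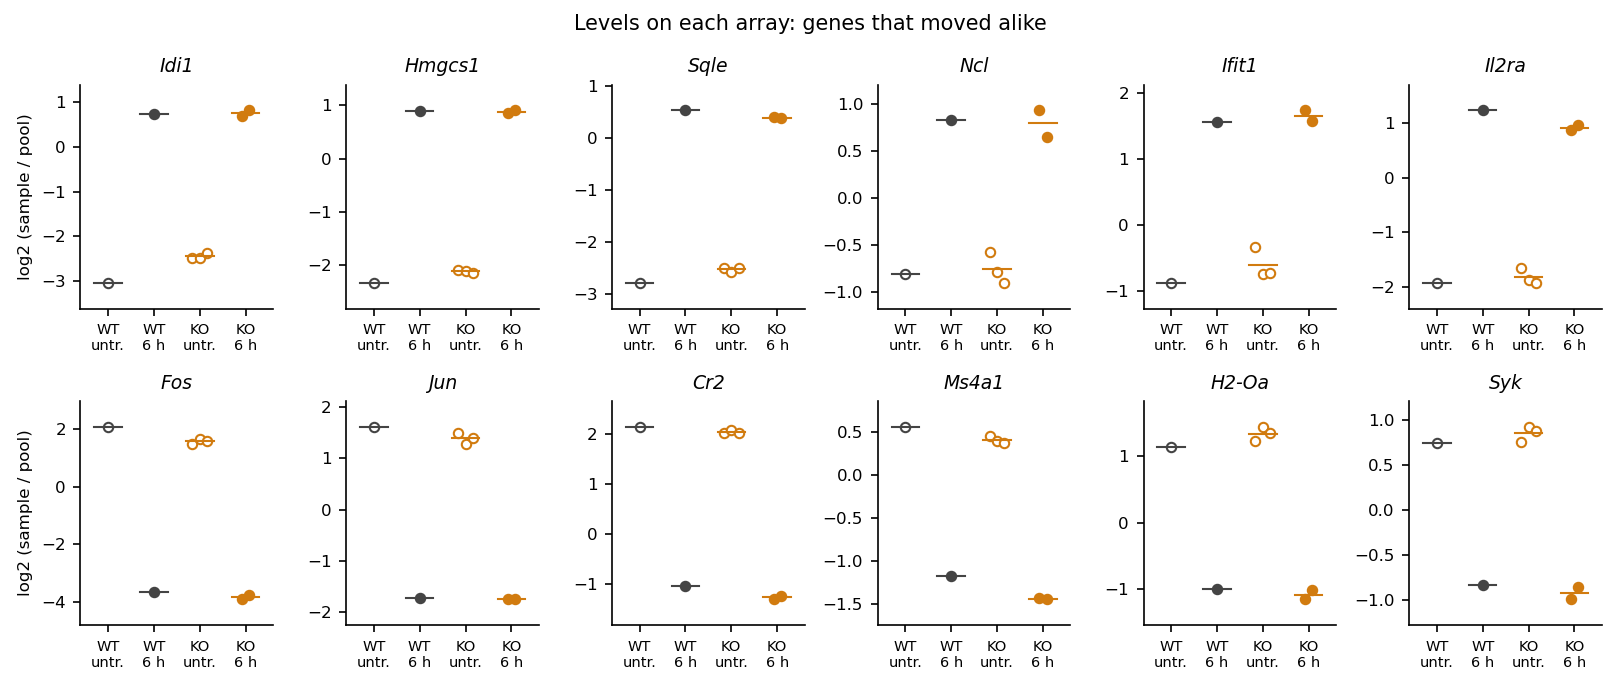
Levels (log2 of sample over pool) of 12 genes that moved alike, 1 point per array, open for untreated and filled for 6 h, grey for ATMWT and orange for ATMKO, with a bar at the mean. In each panel the 3 stimulated arrays lie apart from the 4 untreated ones.

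Many markers of other cell types fell, as did many of the genes described next. All tested markers of T cells (15), NK cells (11), macrophages (13), neutrophils (13), dendritic cells (9), erythroid cells (13) and platelets (7) were well above background on the 4 untreated arrays. Erythroid markers fell in 13 of 13 cases, and their summed sample signal went from 389000 to 506000 untreated to 155000 to 219000 at 6 h. Macrophage markers fell in 10 of 13, with sums of 62600 to 72500 untreated and 27800 to 32900 stimulated, and C1qc, a complement chain made by macrophages, fell by 2.70. T cell markers fell in 11 of 15, from 116000 to 123000 down to 61100 to 68500, NK cell markers in 9 of 11 and neutrophil markers in 11 of 13 (3 of 13 with median centring and 2 with the scanner's log ratio). Among dendritic cell markers 5 of 9 fell and 2 rose, and among platelet markers 1 of 7 fell, where 16.5% of all genes fell and 12.0% rose. Bst2, at 0.64, belongs to both the dendritic cell and the interferon-induced list. Stromal markers fell in 7 of 10. B cell markers fell as well, 12 of 12, with sums of 553000 to 595000 untreated and 282000 to 290000 at 6 h. Fewer cells of a type and less RNA per cell cannot be told apart here, and the part of these shifts in the results below was not tested.

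In B cell receptor signalling 18 of 26 genes fell and 1 rose, with a median of -0.95, and 11 were alike lower (3.44% of all genes were). With median centring 12 fell and 2 rose, with a median of -0.44, and with the scanner's log ratio 11 fell and 1 rose. Syk, the kinase next to the receptor, stood at 0.75 in untreated ATMWT and 0.76, 0.93 and 0.88 in untreated ATMKO cells and at -0.83, -0.99 and -0.85 at 6 h, a difference of -1.68 (SE 0.12, adjusted p = 0.00259). Cd79a, the receptor's signalling chain, fell by 1.55, and Plcg2, the phospholipase, by 1.11. Btk stood at -0.29 (adjusted p = 0.205) and Vav1 at -0.27 (adjusted p = 0.14), and only Vav3, an exchange factor for RAC, rose, by 1.25. Coreceptors and inhibitory receptors fell in 14 of 15 cases, with a median of -1.14. Cr2, the complement receptor CD21, was at 2.14 in untreated ATMWT and 2.02, 2.08 and 2.01 in untreated ATMKO cells and at -1.04, -1.29 and -1.22 at 6 h. Its difference was -3.23 (SE 0.12, adjusted p = 0.00201), and the inhibitory Fc receptor Fcgr2b and Ms4a1, the CD20 gene, differed by -1.44 and -1.79.

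All 11 genes of class II presentation, by which B cells show antigen to T cells, fell, with a median of -1.36 and 7 alike, and 8 of 11 fell with median centring. The largest differences were those of the peptide-loading regulators H2-Oa (-2.27), H2-DMb1 (-2.16) and H2-DMa (-1.89). H2-Oa stood at 1.13 in untreated ATMWT and 1.22, 1.44 and 1.35 in untreated ATMKO cells and at -0.99, -1.15 and -1.02 at 6 h. The class II chains H2-Aa and H2-Eb1 fell by 0.95 and 1.01, and Ciita, their master regulator, by 0.62.

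Homing and egress genes followed. Of 16, 10 fell and none rose, with a median of -1.23 and 9 alike. Itgb7, an integrin chain for gut homing, fell by 2.40, S1pr1, the receptor that leads cells out of lymphoid organs, by 2.05 and Klf2, the factor that drives it, by 2.36. Among 21 FOXO and quiescence genes 14 fell and none rose, with a median of -0.78 (6 fell with median centring and 5 with the scanner's log ratio). Foxo1 fell by 1.51, and its targets Tsc22d3 and Txnip differed by -3.50 and -2.58 (-1.79 with the other Txnip probe), while the FOXO targets Rag1 and Il7r lay at 0.07 and 0.06 and did not pass. Of 20 factors of B cell fate 8 fell and 2 rose (16.5% and 12.0% of all genes did). That split became 3 and 4 with median centring, and 3 and 1 with the scanner's log ratio. Pax5, Ebf1 and Spib, which hold B cell identity, fell by 1.38, 1.11 and 1.17, and Bcl6 fell by 0.76, a call lost with median centring and with the scanner's log ratio (adjusted p up to 0.427). Batf and Bach2 rose by 1.01 and 0.44.

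**Figure D4:**
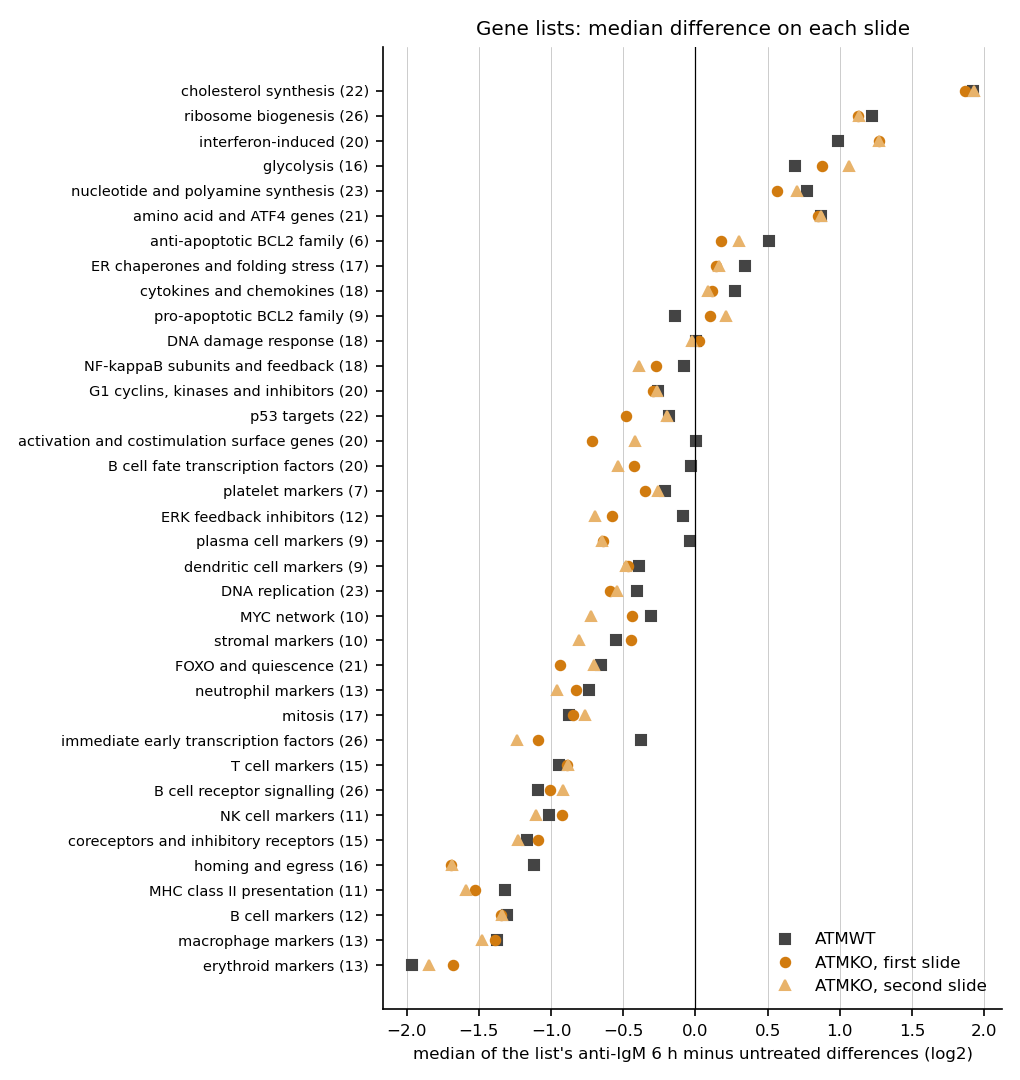
Median difference at 6 h (log2) of each of 36 gene lists, with the number of genes tested in brackets, on the ATMWT slide and on each ATMKO slide. Cholesterol synthesis lies highest, erythroid markers lowest, and the 3 slides lie farthest apart for immediate early factors.

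Of the cell cycle lists, mitosis and DNA replication held only falls among their passing genes, whereas regulators of G1 were split. All 17 mitosis genes fell, with a median of -0.83, led by Mki67, Birc5 and Ccna2 at -1.40, -1.34 and -1.22. Mki67 stood at -1.64 in untreated ATMWT and -1.76, -1.85 and -1.98 in untreated ATMKO cells, and at -3.04, -3.17 and -3.36 at 6 h. With median centring 6 of the 17 passed, and 5 with the scanner's own log ratio. DNA replication genes fell in 14 of 23 cases and none rose (4 fell and 1 rose with median centring, and 4 fell with the scanner's log ratio), Rrm2, a subunit of ribonucleotide reductase, most, by 1.64. Of 20 regulators of G1 4 rose and 9 fell (6 and 5 with median centring), where 12.0% and 16.5% of all genes did. The cyclin D genes split, with Ccnd2 rising by 0.57 and Ccnd1 and Ccnd3 falling by 1.18 and 1.12. The Ccnd2 call was lost with the scanner's log ratio. The cyclin D kinases Cdk4 and Cdk6 rose by 0.90 and 0.48, and the inhibitor Cdkn1b fell by 0.88. Another inhibitor, Cdkn2b, had the list's largest rise, 1.18 (0.47 with its other probe), although its stimulated and untreated arrays overlapped.

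Survival and damage response genes moved in both directions, as did all genes tested, of which 12.0% rose and 16.5% fell. Several counts in these short lists lie near those shares, and none was tested against them. Of 6 anti-apoptotic genes 2 rose and 1 fell. Among them Bcl2l1 rose by 0.95 and Bcl2 fell by 1.21, from 1.01 in ATMWT and 0.98, 0.89 and 0.86 in ATMKO cells to -0.37, -0.01 and -0.24. Of 9 pro-apoptotic genes 2 rose, Bcl2l11, which encodes BIM, by 1.47 and Bax by 0.71, a call that Bax lost with the scanner's log ratio. Among 18 DNA damage response genes 3 rose (Xrcc5, Nbn and Mre11a) and 2 fell, against 6 and 0 with median centring. Of 22 p53 targets 3 rose and 6 fell, against 6 and 1 with median centring. In the NF-kappaB list 2 of 18 rose, Nfkb1 by 0.80 and Bcl3 by 0.82, and 4 fell, against 6 and 0 with median centring and 0 and 0 with the scanner's log ratio. In the MYC network 3 of 10 fell and none rose.

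Beside the 1234 genes that moved alike, 1592 were at least 2-fold apart from untreated cells in 1 genotype only. Untreated ATMKO and ATMWT levels were at least 2-fold apart for 490 genes (2.18%), 405 of them higher in ATMKO cells, and at 6 h for 42 genes (0.187%). Without repeat 1 of the untreated ATMKO cells the count higher in ATMKO cells was 391, and 238 genes were at least 2-fold higher on each of the 3 arrays. Of the 405, 3 were still at least 2-fold higher in ATMKO cells at 6 h. The difference between genotypes could not be tested, since the 4 samples leave no residual degree of freedom for it, so values stand side by side here. They also rest on 1 ATMWT array per condition.

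Of the 11 immediate early factors at least 2-fold higher in untreated ATMKO cells, none was so at 6 h, where 3 of the 405 such genes over all were. Nr4a1, a nuclear receptor that reports antigen receptor signalling, stood at 0.11 in untreated ATMWT but at 3.02, 3.39 and 3.20 in untreated ATMKO cells. At 6 h it was at -0.04, -0.13 and 0.08, so the stimulated arrays of both genotypes overlapped, and its difference was -0.15 in ATMWT and -3.23 in ATMKO cells. Ccr7, the homing receptor for the T cell zone, was at -0.53 untreated in ATMWT against 2.15, 2.40 and 2.19 in ATMKO cells, and at 0.43, 0.43 and 0.69 at 6 h. Its differences were 0.97 and -1.69, in opposite directions. Irf4, a factor of plasma cell fate, also had opposite differences, 0.47 and -1.26, as did Myc, the growth regulator, with 0.21 and -1.38. With median centring the fitted signs of Ccr7 and Irf4 turned to positive. Cd86 stood at -1.33 and 0.38 in ATMWT cells, and at 0.12, 0.18 and 0.23 before and 0.28 and 0.37 after in ATMKO cells. Cd69, an early activation marker, was lower in both, with differences of -1.52 in ATMWT and -3.53 in ATMKO cells. The untreated gaps between genotypes, ATMKO minus ATMWT, were 1.91 for Irf4, 1.55 for Myc and 1.51 for Cd86.

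Among all genes, 10 were at least 2-fold higher in ATMWT and at least 2-fold lower in ATMKO cells, and 0 the reverse. Without repeat 1 of the untreated ATMKO cells there were 10 and 0, of which 9 were shared. Of these, Cd83, an activation marker of B cells and dendritic cells, and Maff, a small MAF factor, belong to the gene lists, and they are named after their values were seen. Cd83 stood at -1.17 in untreated ATMWT and 1.96, 2.11 and 1.90 in untreated ATMKO cells, and at 0.56, 0.16 and 0.18 at 6 h. Maff stood at -1.55 against 1.20, 1.45 and 1.51, and at -0.36, -0.68 and -0.44 at 6 h. At 6 h both genes lay within 2-fold between the genotypes, as did 1224 of the 1234 genes that moved alike and all but 42 of all genes, and none of the 22 cholesterol genes was 2-fold apart before or after stimulation.

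**Figure D5:**
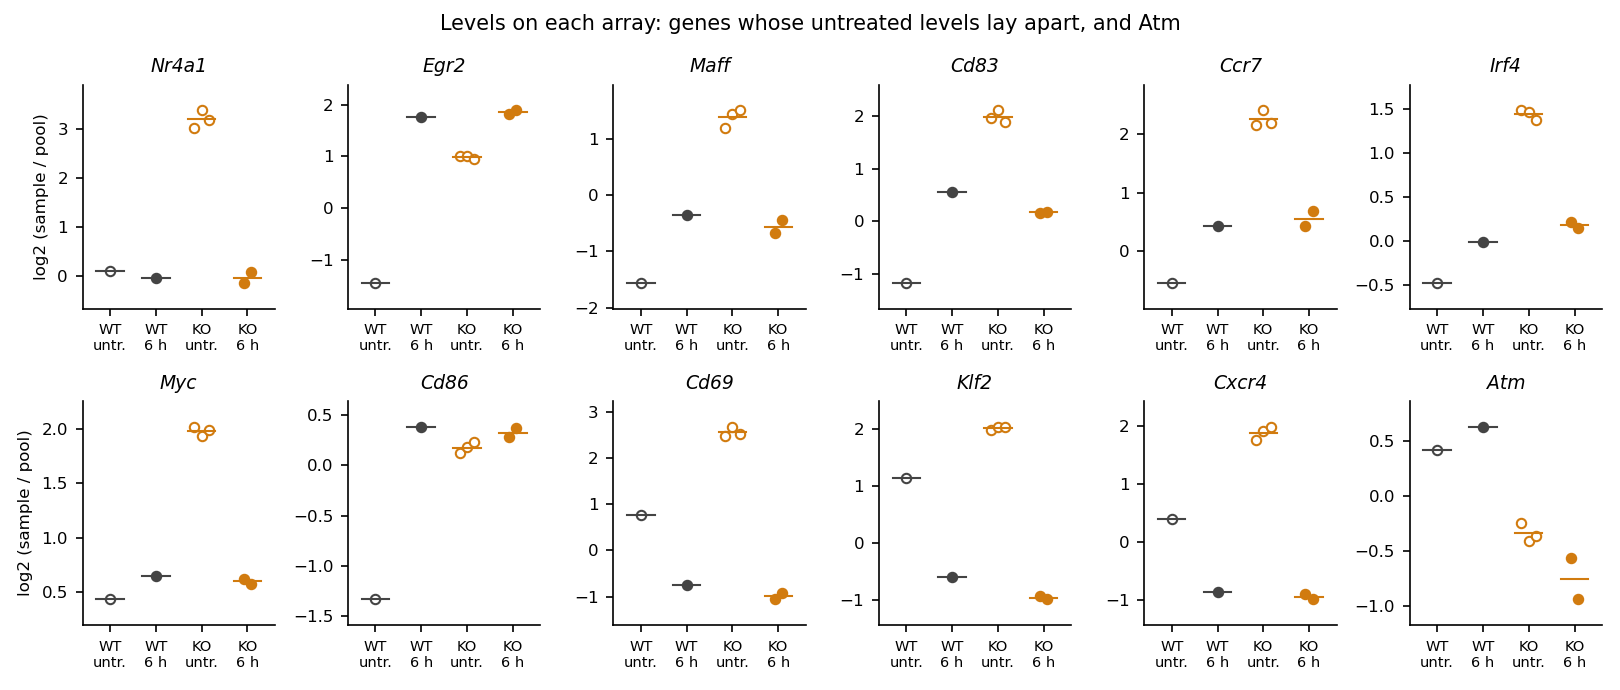
Levels (log2 of sample over pool) of 11 genes whose untreated levels differed between genotypes, and of Atm, 1 point per array, open for untreated and filled for 6 h, grey for ATMWT and orange for ATMKO, with a bar at the mean. Other than for Atm, the filled points of both genotypes lie close together, as for Nr4a1 between -0.13 and 0.08, whereas the open points lie apart.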

How the data were processed

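RNA of splenic B cells was hybridised with a pool of splenic B cell, tumour and germinal centre B cell RNA to Agilent 2-colour arrays of 62976 spots, with no dye swap. Per the file headers, Feature Extraction 10.1.1.1 wrote the deposited mean and background signals as intensity and its log ratio as log10 of red over green. The submitters' processing notes name version 9.1 and limma. The deposited series matrix held the same log10 ratio, within 0.0005, with column medians from -0.087 to -0.028, so uncentred and red over green.

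Signals were corrected with normexp (offset 50) and loess-normalised within arrays in limma 3.58.1 (R 4.3.3). Control and outlier spots were left out and spots of a probe averaged. Kept probes had, on a share of 0.5 or more of the 7 arrays, a channel well above background, and the brightest probe stood for each symbol. Of 55681 probes, 27235 took a RefSeq symbol by accession and the others kept the design's name, so that interval and clone names count as genes. A further 2 genes lacked a value on a sample. A probe missing on 1 ATMKO array was averaged over the others. Stimulation was fitted with genotype as a term (1 residual and 4.1 prior degrees of freedom), with empirical Bayes and Benjamini-Hochberg adjustment over all genes at 0.05. The fit was also run on simulated data with independent noise and the same change in both genotypes. That run does not cover genes whose genotypes disagreed. With 1 ATMWT sample per condition, and no label that names separate mice, p-values measure only the spread between these samples. The number of arrays limits the precision.

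Members and the 36 gene lists were chosen with earlier results of these data known. Named genes were the 8 largest passing changes per direction with all slides on 1 side, up to 3 per list, and 14 genes of B cell activation and of the knockouts, of which not all appear. List members given for their role fall outside that rule. Some list members are counted but not reported by name here. Software was the R packages data.table and statmod 1.5.0, pandas 2.3.3, numpy 2.4.6 and Python 3.11.15, and figures matplotlib 3.10.9.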

Additional observations from a re-analysis of the deposited data

Results flagged for a closer look

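In 6 of the named genes the ATMWT difference at 6 h ran one way while every stimulated ATMKO array lay on the other side of every untreated ATMKO array. The difference between genotypes was not tested. ATMWT minus ATMKO, it was 3.55 for Cd83, 3.14 for Maff, 2.65 for Ccr7, 1.72 for Irf4, 1.60 for Myc and 0.62 for Atm.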

How the results depend on the processing

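Results were recomputed under 17 tested settings. All 115 named genes that passed kept their direction in each. With the 3 h and 24 h ATMKO samples counted as stimulated, limma called 0 genes in every count, with 1707 genes at an unadjusted p under 0.05. In the other 16 settings 98 of the 115 kept their call. The scanner's log ratio gave 1228 rises, 1471 falls and 850 alike higher. Median centring gave 5357 rises, 1882 falls, 1310 alike higher and 389 alike lower, and shared 366 of the 774 alike lower genes. Over 7 arrays, the sample as a random block gave 4274 rises and 5606 falls, and the slide as a block 4766 and 6353, since technical repeats then count singly. Leaving out 1 ATMKO array gave 2216 to 2765 rises, 3110 to 3797 falls, 441 to 471 alike higher and 740 to 818 alike lower. No ATMWT array could be left out. Stimulated and untreated ATMKO arrays with the same repeat number shared a slide, and their deviations correlated at 0.25 and 0.293. The labels name no pairing and only 2 numbers are shared, so the block was kept as an alternative: a replicate block gave 3859 rises and 5039 falls, with 458 and 773 alike. Of the 9 named genes that did not pass, 4 passed in at least 1 setting, Egr1 in 3, Nr4a1 in 2, and Cd86 and Myc in 1 each. Signs turned for genes that did not pass: with median centring Atm was at 0.16, Ccr7 at 0.21, Cd83 at 0.51 and Irf4 at 0.088, with the scanner's log ratio Atm was at 0.005, and with 3 h and 24 h as stimulated Maff was at 0.058.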
